A study of Mus musculus with 4 samples.

Results

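The 8 genes described here, Lifr, Il6st, Jak1, Jak2, Stat3, Socs3, Socs2 and Pim1, encode the core of the signalling pathway of leukaemia inhibitory factor (LIF) in mouse embryonic stem cells (mESCs). They were chosen by symbol as components, inhibitors and a known target of the pathway, and all 8 were found among the 25965 genes listed in the expression table. All 8 were among the 13264 genes that passed the filter on low values, a mean of at least 0 over the 4 libraries on the log2 CPM scale, where CPM is the count scaled to a common library size of 1000000 reads. The study profiled RNA from female mESCs, derived as an F1 cross of FVB dams with CAST sires, in 4 libraries. The Day0 library came from mESCs maintained with LIF and inhibitors of MEK and GSK3, before differentiation. Its title names no hairpin and it was harvested ahead of the day of transduction, although its genotype label reads as a nonsilencing control. The other 3 libraries came from day 6, after the cells had been weaned off those inhibitors and LIF into serum-containing medium. These day 6 cells had been transduced with a retroviral short hairpin RNA (shRNA) on day 2 and selected with puromycin from day 3, and the hairpin was either a control that silences no gene (Nons) or Smarca4-4 or Smarca4-6, which both target Smarca4. Day0 therefore differed from every day 6 library in medium, LIF, hairpin and puromycin at once, and these cannot be told apart. With 1 library per group, differences could not be set against replicate spread and were not tested, and the 95% intervals below cover counting error only.

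LIF binds its receptor, Lifr, which pairs with the shared signalling subunit gp130, the product of Il6st. The receptor-bound Janus kinases (JAKs) then phosphorylate STAT3, which moves to the nucleus and drives genes that keep mESCs in the naive pluripotent state. Among the genes STAT3 drives is Socs3, whose protein binds gp130 and the JAKs and shuts the signal down. The products of Socs2 and Pim1 are also cytokine-induced, the former a suppressor best known for restraining growth hormone signalling and the latter a serine/threonine kinase that favours survival and growth.

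The hairpins are shown because they set the 3 day 6 groups apart. For each, the 22 bases of the guide strand are written 5′ to 3′ with the seed, bases 2 to 8, in capitals.
Nons: cTTACTCTcgcccaagcgagag
Smarca4-4: tTTATTACtgtctgactccagt
Smarca4-6: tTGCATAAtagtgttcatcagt
The Smarca4-4 guide was complementary to the 3′ untranslated region of Smarca4 at chr9:21703327-21703348 (GRCm38, plus strand), in 3 of 4 annotated transcripts. The Smarca4-6 guide was complementary to coding sequence at chr9:21670504-21670525, in 4 of 4 transcripts. The Nons guide matched none of them.

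STAT dimers recognise the palindrome TTCNNNGAA. A search of promoter windows from 250 bases before to 50 bases after each RefSeq gene start (GRCm38.p6) found these letters for 1 member, Socs3. The match, in capitals, is shown with 60 bases on each side, since Socs3 differed most from Nons of the 8 genes in both Smarca4 libraries.
Socs3: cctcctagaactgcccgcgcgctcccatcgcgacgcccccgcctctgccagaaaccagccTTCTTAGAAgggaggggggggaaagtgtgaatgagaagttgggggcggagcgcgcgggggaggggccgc
This stretch lies at chr11:117969452-117969580 on the minus strand, outside the annotated exons of Socs3. The match begins at position -154 relative to the RefSeq gene start. The Socs3 span in the expression table, chr11:117966079-117970047, starts further upstream, so the match lies inside that span. The pattern TTCNNNGAA is its own reverse complement, so a search of 1 strand covers both. Windows were given for 7 of the 8 genes, all but Socs2. The same letters occurred in 2726 of all 32851 promoter windows (8.3%). A form with 4 unspecified bases in the middle in place of 3 occurred in 2284 windows (6.95%) and in no window of a member. A match describes the sequence and is not evidence of binding.

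Depth ranged from 18599402 reads at day 0 to 47143727 in Smarca4-4. A count of 3 reads, the lowest level taken as detectable, corresponded to 0.161 CPM at day 0 and 0.0636 to 0.0822 CPM at day 6, well below every value of the 8 genes. Smarca4, the BAF complex ATPase targeted by the hairpins, was at 57.3% of its Nons level in Smarca4-4 and 75.8% in Smarca4-6. Of 5 mESC markers, Nanog, Sox2, Zfp42 and Esrrb fell between Day0 and Nons by 3.30 to 5.75 on the log2 scale, and Pou5f1 differed by 0.34. The day 0 library thus carried the markers of its label, and Pou5f1 was still at 9.45 to 9.94 log2 CPM in the 3 day 6 libraries. Reads of Y-linked Ddx3y, absent at day 0, numbered 83 to 107 in the day 6 libraries although all cells are labelled female, and their part in the results below was not tested.

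At day 6 the receptor pair, the transcription factor and its feedback inhibitor were all at least 2-fold lower than at day 0, whereas the kinases, Socs2 and Pim1 were not. Relative to Day0, Nons was at least 2-fold lower for 4 of the 8 genes, Lifr, Il6st, Stat3 and Socs3, and at least 2-fold higher for 0 of 8. Over all tested genes, 12.3% were at least 2-fold lower and 19.6% at least 2-fold higher. The same 4 genes were at least 2-fold lower than Day0 in each of the 3 day 6 libraries, as were 9.01% of tested genes, with 16.6% higher in each. The median difference between Nons and Day0 was -1.06 over the 8 genes and 0.03 over all tested genes, on the log2 scale. The 3 day 6 libraries were all set against a single Day0 library, so these differences share it.

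**Figure D1:**
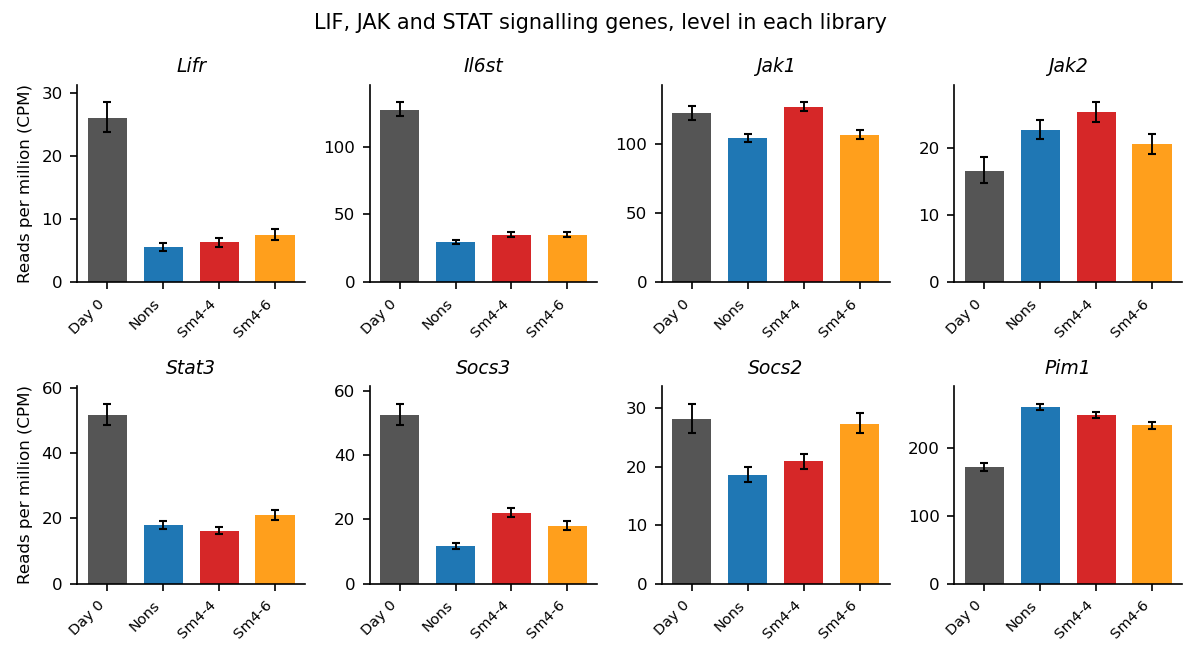
Level of each of the 8 genes in the 4 libraries, in CPM on a linear axis that starts at 0 and is scaled per gene; bars are single libraries (Sm4-4 and Sm4-6 are the Smarca4-4 and Smarca4-6 day 6 libraries) and error bars are exact 95% Poisson intervals of the count. Lifr, Il6st, Stat3 and Socs3 were highest at day 0, and Socs3 was higher in both Smarca4 libraries (22 and 17.9 CPM) than in Nons (11.7 CPM).

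The receptor subunits fell together. Lifr (chr15:7129559-7197489, plus strand, mm10), the LIF-binding subunit, was at 26.1 CPM at day 0, 5.55 CPM in Nons, 6.32 CPM in Smarca4-4 and 7.54 CPM in Smarca4-6, from 486, 254, 298 and 275 reads. Day 0 was far above the 3 day 6 libraries, among which Nons was the lowest and Smarca4-6 the highest. Nons differed from Day0 by -2.23 on the log2 scale (95% interval -2.46 to -2.01), and was at 21.2% of the day 0 level. Il6st (chr13:112475008-112506860, plus strand), which encodes gp130, was at 128 CPM at day 0, 29.8 CPM in Nons, 34.9 CPM in Smarca4-4 and 35.1 CPM in Smarca4-6. Its difference between Nons and Day0 was -2.10 (-2.20 to -2.00), or 23.3% of the day 0 level. In these bulk libraries, fewer cells that express a gene and less RNA of it per cell cannot be told apart.

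Both subunits are needed in one receptor complex. Levels of different genes were compared per kilobase of exon (RPKM), and by that measure Il6st was 4.74 times as high as Lifr at day 0 (95% interval 4.30 to 5.24), 5.21 times in Nons (4.55 to 5.98), 5.37 times in Smarca4-4 (4.74 to 6.09) and 4.52 times in Smarca4-6 (3.96 to 5.17). These intervals overlapped one another in all 4 libraries. With the longest transcript as gene length in place of all exons, the ratios were 5.43, 5.97, 6.15 and 5.18.

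The kinases that sit on these receptors did not pass 2-fold in any comparison. Jak1 (chr4:101152367-101265282, minus strand), the JAK most needed for gp130 signalling, was at 123 CPM at day 0, 105 CPM in Nons, 127 CPM in Smarca4-4 and 107 CPM in Smarca4-6. Nons differed from Day0 by -0.23 (-0.30 to -0.16). Jak2 (chr19:29251828-29313080, plus strand), which also serves the growth hormone and erythropoietin receptors, was at 16.6 CPM at day 0, 22.7 CPM in Nons, 25.3 CPM in Smarca4-4 and 20.6 CPM in Smarca4-6, and its difference between Nons and Day0 was 0.45 (0.26 to 0.64). The 2 kinases thus stood on opposite sides of their day 0 levels in Nons. Per kilobase, Jak1 exceeded Jak2 5.14-fold at day 0 (4.56 to 5.81) and 3.21-fold in Nons (3.0 to 3.44), with 3.50-fold in Smarca4-4 and 3.62-fold in Smarca4-6. With the longest transcript as gene length, these ratios were 7.57, 4.73, 5.16 and 5.33.

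Stat3 (chr11:100885098-100939540, minus strand) was at 51.7 CPM at day 0, 18 CPM in Nons, 16.2 CPM in Smarca4-4 and 21.0 CPM in Smarca4-6. Day 0 was again the highest library, and Nons differed from it by -1.52 (-1.65 to -1.38), or 34.9% of the day 0 level. Exons of Stat3 and of the opposite-strand gene Stat5a share 72 bases, 0.756% of the exon bases of Stat3, and reads there cannot be assigned to either gene because a strand setting for the counting was not stated.

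Of the suppressors, Socs3 fell and Socs2 did not pass 2-fold. Socs3 (chr11:117966079-117970047, minus strand) was at 52.5 CPM at day 0, 11.7 CPM in Nons, 22 CPM in Smarca4-4 and 17.9 CPM in Smarca4-6, from 976, 534, 1037 and 653 reads. Its difference between Nons and Day0 was -2.17 (-2.32 to -2.02), or 22.2% of the day 0 level, a size similar to those of Lifr and Il6st. The differences of Smarca4-4 and Smarca4-6 from Day0 were -1.25 and -1.55. Socs2 (chr10:95385362-95417180, minus strand) was at 28.2 CPM at day 0, 18.6 CPM in Nons, 20.9 CPM in Smarca4-4 and 27.3 CPM in Smarca4-6. Nons differed from Day0 by -0.60 (-0.76 to -0.44), and the Smarca4-6 level was close to that of day 0. Per kilobase of exon, Socs3 was 6.14 times as high as Socs2 at day 0 (5.52 to 6.84), 2.07 times in Nons (1.85 to 2.31), 3.47 times in Smarca4-4 (3.18 to 3.79) and 2.16 times in Smarca4-6 (1.95 to 2.39). With the longest transcript as gene length in place of all exons, these ratios were 3.10, 1.04, 1.75 and 1.09.

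Pim1 (chr17:29490812-29495445, plus strand) was at 173 CPM at day 0, 261 CPM in Nons, 249 CPM in Smarca4-4 and 234 CPM in Smarca4-6. Unlike the 4 genes that fell, its lowest library was day 0, and Nons differed from Day0 by 0.59 (0.54 to 0.65), short of 2-fold. An opposite-strand gene, Gm26885, overlaps 488 exon bases of Pim1 (14.5%), so the origin of reads in that stretch is uncertain.

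Markers of other cell types moved between day 0 and day 6 along with these genes. The summed level of the 5 mESC markers was 3139 CPM at day 0 and 814 to 1092 CPM in the day 6 libraries. Pou5f1 made up most of the day 6 sums, at 701 to 982 CPM, beside 724 CPM at day 0. The other 4 were at least 2-fold lower than at day 0 in every day 6 library. The 6 mesenchymal and smooth muscle markers summed to 118 CPM at day 0, with Acta2 at 0 reads, and to 730 to 1032 CPM at day 6, and 4 of the 6 were at least 2-fold higher in every day 6 library. The 4 neural markers summed to 169 CPM at day 0 and 441 to 481 CPM at day 6, and Nes accounted for this, at 43.7 CPM at day 0 and 380 CPM in Nons. The other 3 were lower in Nons than at day 0, with Tubb3 at 111.6 and 58.2 CPM, Pax6 at 13.2 and 7.34 CPM and Sox1 at 0.806 and 0.197 CPM. The 5 trophectoderm markers summed to 89.9 CPM at day 0 and 72.0 to 117 CPM at day 6, a sum within which Krt7 rose by 4.33 and Hand1 by 4.58 on the log2 scale between Day0 and Nons while Tfap2c fell by 2.40. The 5 endoderm markers summed to 7.90 CPM at day 0 and 4.85 to 7.59 CPM at day 6. The 4 blood markers went from 84.1 CPM to at most 3.63 CPM, with Ptprc and Tyrobp, the defining ones, at 0 reads in all 4 libraries. Laptm5 accounted for this fall, at 83.6 CPM at day 0 and 2.56 CPM in Nons, while Cd52 was at 0.538 and 1.07 CPM. The part of these cell types in the results was not tested.

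In the Smarca4 knockdown libraries the 8 genes were within 2-fold of the control, and Socs3 was the member furthest from it with either hairpin. Relative to Nons, 0 of the 8 genes were at least 2-fold higher or lower in Smarca4-4, where 0.882% of tested genes were higher and 0.309% lower. In Smarca4-6 the count was also 0 of 8 in each direction, against 1.03% higher and 0.799% lower. With both hairpins in the same direction it was 0 of 8, against 0.513% of tested genes (68 genes). Both differences share the single Nons library. The median difference of the 8 genes from Nons was 0.18 in Smarca4-4 and 0.23 in Smarca4-6, beside 0.04 and 0.06 over all tested genes.

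**Figure D2:**
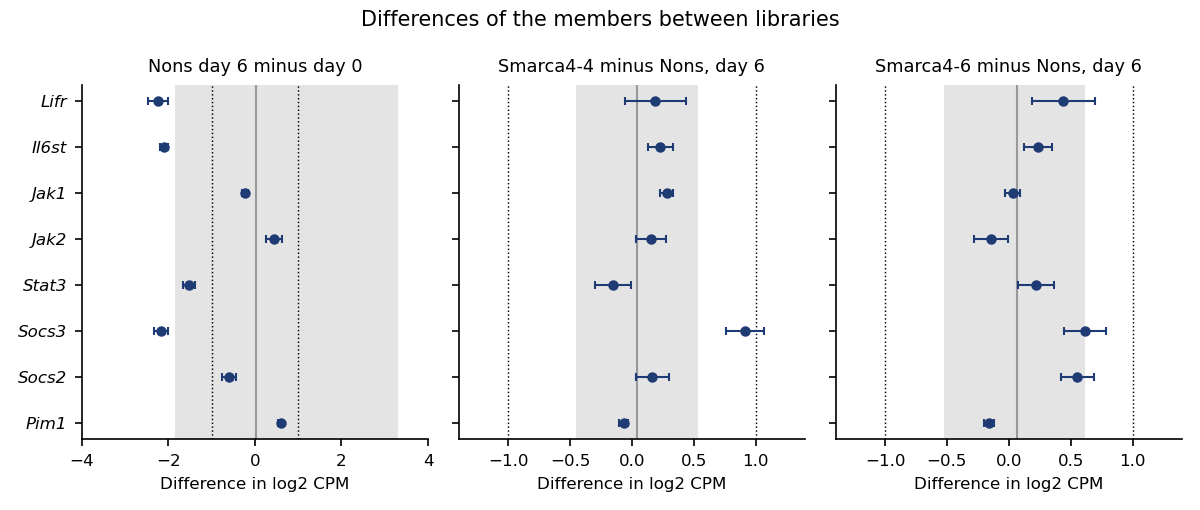
Difference in log2 CPM of each of the 8 genes between Nons day 6 and day 0 (left, wider axis) and between each Smarca4 library and Nons (middle and right); points are single-library differences, bars exact 95% counting intervals, dotted lines 2-fold, the grey line the median and the grey band the 5th to 95th percentile of the 13264 tested genes. Socs3 stood at 0.91 and 0.62 in the Smarca4-4 and Smarca4-6 panels, the highest of the 8 genes in each.

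Socs3 was 1.88-fold higher in Smarca4-4 than in Nons (log2 difference 0.91, 0.76 to 1.07) and 1.53-fold higher in Smarca4-6 (0.62, 0.45 to 0.78). Of all tested genes, 98.8% had a lower difference than Socs3 with Smarca4-4 and 95.1% with Smarca4-6. Both levels remained below that of day 0, and the 2 Smarca4 libraries differed from each other by 0.30 (0.16 to 0.44). The receptor subunits lay closer to Nons. Il6st differed from it by 0.23 (0.13 to 0.34) in Smarca4-4 and 0.24 (0.13 to 0.35) in Smarca4-6, nearly the same value with both hairpins. Lifr differed by 0.19 (-0.06 to 0.43) and 0.44 (0.19 to 0.69), so only the second interval lay above 0.

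Socs2 was above Nons with both hairpins, by 0.16 (0.03 to 0.30) in Smarca4-4 and by 0.55 (0.42 to 0.69) in Smarca4-6. The order of the hairpins was therefore opposite for the 2 suppressors, Socs3 being higher in Smarca4-4 and Socs2 higher in Smarca4-6 (Smarca4-4 minus Smarca4-6, -0.39, with an interval of -0.52 to -0.26). The Socs2 interval of Smarca4-4 against Nons moved by -0.04 with TMM factors and -0.03 with centring on the autosomal median, to include 0. Jak1 differed from Nons by 0.28 (0.23 to 0.34) in Smarca4-4 and by 0.03 (-0.03 to 0.09) in Smarca4-6, where the sign turned with centring on the autosomal median (-0.03) or TMM factors (-0.04). Pim1 differed by -0.07 (-0.10 to -0.03) and -0.16 (-0.20 to -0.12), from 8536 to 11933 reads per library.

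Jak2 and Stat3 lay on opposite sides of Nons with the 2 hairpins. Jak2 differed by 0.16 (0.04 to 0.28) in Smarca4-4 and by -0.14 (-0.28 to -0.01) in Smarca4-6. For Stat3 the signs were reversed, with -0.15 (-0.30 to -0.01) in Smarca4-4 and 0.22 (0.08 to 0.36) in Smarca4-6. Between the hairpins, Stat3 differed by -0.37 (-0.52 to -0.23) and Jak2 by 0.30 (0.17 to 0.43). None of the 8 genes passed 2-fold between the 2 Smarca4 libraries, where 0.415% of tested genes were higher in Smarca4-4 and 0.241% lower. Beside these values, the mesenchymal and smooth muscle markers summed to 1032 CPM in Nons, 822 CPM in Smarca4-4 and 730 CPM in Smarca4-6, and the smooth muscle actin gene Acta2 fell by 1.03 and 1.83 on the log2 scale. Tagln made up most of that sum, at 852, 637 and 538 CPM, and 3 of the 6 markers were above Nons in Smarca4-4, with Vim differing by 0.49 and 0.74 in Smarca4-4 and Smarca4-6. Of the neural markers, Pax6 differed by 0.62 and 0.60 and Tubb3 by 0.43 and 0.61. Nes, which made up most of the neural sum, differed by -0.12 and 0.003. Sox1 was also higher with both hairpins but did not pass the filter. The neural sum was 445 CPM in Nons, 441 CPM in Smarca4-4 and 481 CPM in Smarca4-6. Of the mESC markers, Nanog differed by -0.36 and -0.39 and Sox2 by -0.44 and -0.38. Zfp42 differed by 0.26 and 0.09, Esrrb by 0.14 and 0.04, and Pou5f1 by -0.38 and 0.10. The 3 trophectoderm markers that passed the filter were above Nons with both hairpins, Hand1 by 1.59 and 0.77, Tfap2c by 0.78 and 0.47, and Krt7 by 0.50 and 0.19. So were the 2 endoderm markers that passed it, Gata4 by 0.41 and 0.74 and Sox17 by 0.43 and 0.73. The Sox17 interval in Smarca4-4 included 0 (-0.01 to 0.88). Of the blood markers, Laptm5 was lower in both. The part of these markers in the differences of the 8 genes was not tested.

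Per kilobase of exon, Pim1 was the highest and Lifr the lowest of the 8 genes in each library, with either measure of gene length. Pim1 was at 51.4 RPKM at day 0 and 69.6 to 77.6 RPKM at day 6, and Lifr at 2.42 and 0.515 to 0.699 RPKM. Jak1 was at 14.5 to 17.6 RPKM throughout. Socs3 stood beside Jak1 at day 0, at 18.2 RPKM, and between 4.04 and 7.61 RPKM at day 6. Stat3 was at 5.42 RPKM at day 0 and 1.70 to 2.21 RPKM at day 6, the second lowest of the 8 genes in each day 6 library. The order of the genes between these ends changed with the length used.

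**Figure D3:**
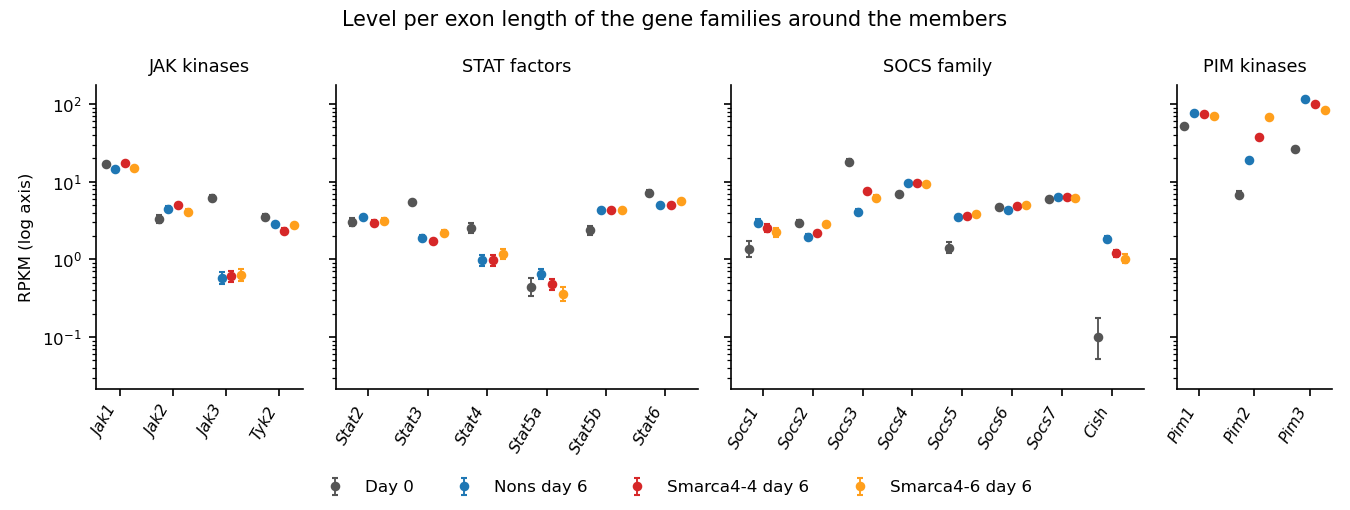
Level per kilobase of exon (RPKM, log axis) of genes of the JAK, STAT, SOCS and PIM families in the 4 libraries, where points are single libraries and bars exact 95% counting intervals. Jak3 went from 6.19 RPKM at day 0 to 0.576 RPKM in Nons while Jak1 stayed between 14.5 and 17.6 RPKM, and Pim2 reached 67.0 RPKM in Smarca4-6.

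Within the gene families the members were not alone in changing. Jak3, a kinase best known from lymphocyte cytokine receptors, was at 6.19 RPKM at day 0 and 0.576, 0.602 and 0.635 RPKM in Nons, Smarca4-4 and Smarca4-6. It stood above Jak2 at day 0 and below it at day 6. The ratio of Jak1 to Jak3 per kilobase was 2.74 at day 0 (2.51 to 3.0) and 25.2 in Nons (21.3 to 30.0), or 3.06 and 28.0 with longest-transcript lengths. Pim2, an X-linked kinase close in sequence to Pim1, went the other way, from 6.83 RPKM at day 0 to 19.2 in Nons, 37.1 in Smarca4-4 and 67.0 RPKM in Smarca4-6. Its log2 difference from Nons was 0.95 (0.88 to 1.02) in Smarca4-4 and 1.80 (1.73 to 1.87) in Smarca4-6. The ratio of Pim1 to Pim2 accordingly was 7.52 at day 0 (6.74 to 8.42), 4.03 in Nons (3.86 to 4.21), 2.00 in Smarca4-4 (1.93 to 2.07) and 1.04 in Smarca4-6 (1.01 to 1.07). With the longest transcript as gene length the last ratio was 0.946, so which of the 2 was higher in Smarca4-6 depends on the length used.

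A list of 35 other JAK-STAT genes (ligands, receptors, kinases, STATs, SOCS and PIAS inhibitors, phosphatases and adaptors) held 31 that passed the filter. Between Day0 and Nons, 8 of the 31 were at least 2-fold higher (25.8%, beside 19.6% of all tested genes) and 5 lower (16.1%, beside 12.3%), with a median difference of 0.23. Of these, 7 higher and 5 lower genes were so in each day 6 library, beside 16.6% and 9.01% of all tested genes. The largest rises were in Cish, a STAT5-induced suppressor of the SOCS family (4.17, from 12 reads at day 0 to 533 in Nons), and Cntfr, the receptor subunit for ciliary neurotrophic factor (4.15). Clcf1, a ligand of that receptor, rose by 3.13 from 6 reads at day 0. Il11ra1, the interleukin-11 receptor subunit, rose by 2.52, a value that is uncertain since the mouse genome holds close copies of this gene. Each of these ligands and receptors signals through gp130, the product of Il6st.

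The largest falls were in Jak3 (-3.43), in Il6ra, which encodes the interleukin-6 receptor subunit (-3.0), in Ptpn6, a phosphatase that acts on JAKs (-2.30), and in Pias2, a SUMO ligase of the PIAS family (-1.41). Relative to Nons, 0 of the 31 passed 2-fold in Smarca4-4, beside 0.882% of all tested genes higher and 0.309% lower. In Smarca4-6, 1 of the 31 did so, Pim2, which was higher, beside 1.03% of all tested genes higher and 0.799% lower. The medians were 0.01 and -0.04. Cish was below Nons in both Smarca4 libraries, with differences of -0.60 (-0.80 to -0.41) and -0.83 (-1.06 to -0.61), on the opposite side from Socs3 and Socs2. Socs1, at -0.22 (-0.44 to -0.01) and -0.40 (-0.64 to -0.16), was also below Nons in both. So was Stat5a, at -0.45 (-0.75 to -0.15) and -0.86 (-1.23 to -0.50). Of the 31 genes, 18 were above Nons in Smarca4-4 and 14 in Smarca4-6. Lif itself was at 2.86 log2 CPM at day 0, 3.07 in Nons, 3.22 in Smarca4-4 and 3.0 in Smarca4-6, and the interval of its difference between Nons and Day0 spanned 0 (0.21, -0.08 to 0.50). Il6 had 0 reads in all 4 libraries.

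**Figure D4:**
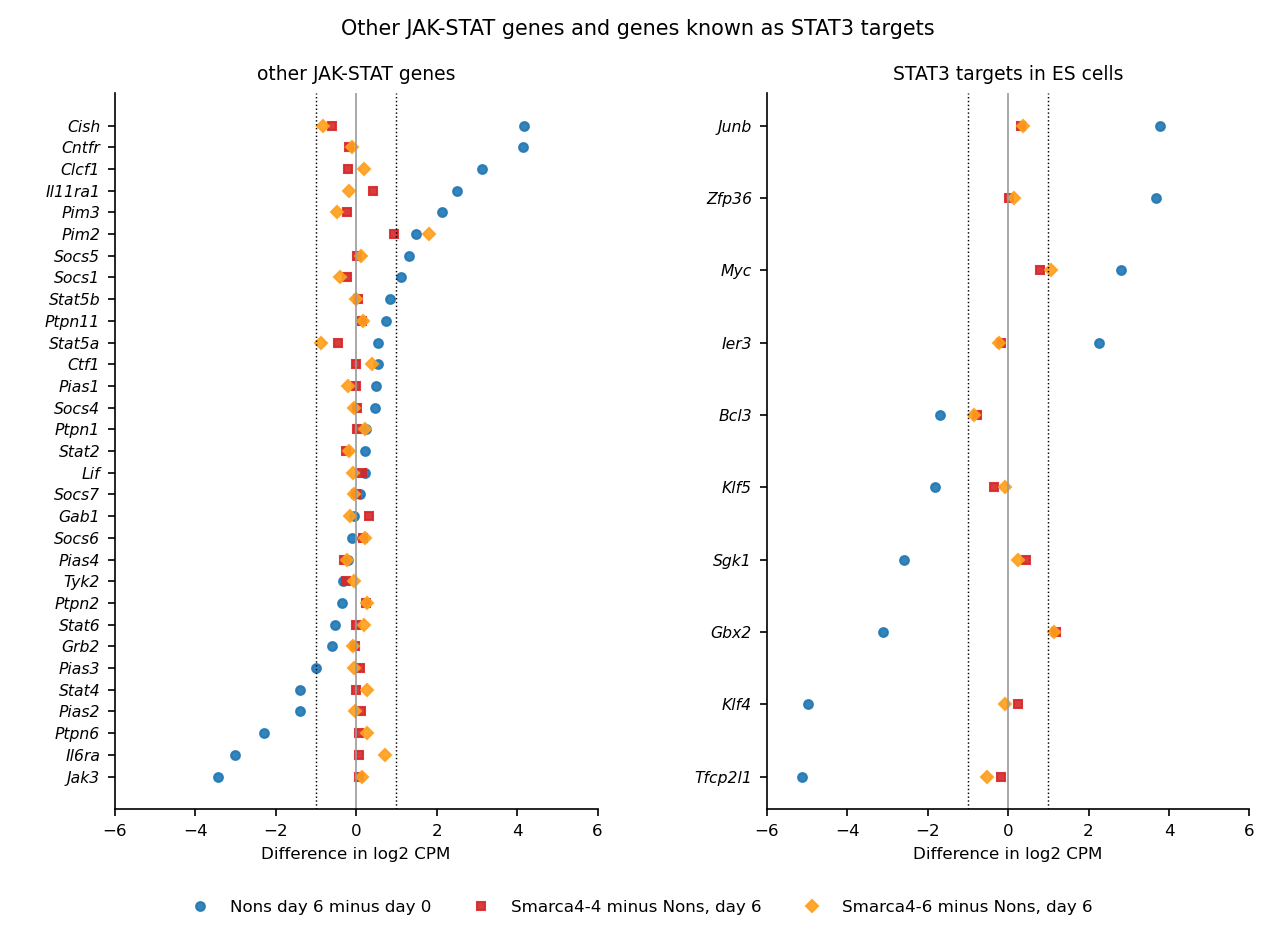
Difference in log2 CPM of the 31 other JAK-STAT genes (left) and the 10 genes known as STAT3 targets (right) that passed the filter, for Nons minus day 0 (circles), Smarca4-4 minus Nons (squares) and Smarca4-6 minus Nons (diamonds); each point is a difference between single libraries and dotted lines mark 2-fold. The largest changes were between day 0 and Nons, from -5.13 for Tfcp2l1 to 4.17 for Cish, and the hairpin differences past 2-fold were those of Pim2, Gbx2 and Myc.

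Genes known as STAT3 targets in ES cells went in both directions at day 6. Of 11 listed, 10 passed the filter. In each of the 3 day 6 libraries 6 of them were at least 2-fold lower than at day 0 and 4 higher, beside 9.01% and 16.6% of all tested genes, and the median between Day0 and Nons was -1.75. The genes that fell furthest were transcription factors of the naive state, Tfcp2l1 by 5.13 and Klf4 by 4.98 on the log2 scale, and Gbx2, a homeobox gene, by 3.11. Sgk1, a kinase, fell by 2.60. The genes that rose are immediate early or growth genes, Junb (3.78), Zfp36 (3.67), Myc (2.80) and Ier3 (2.27), which many signals other than LIF induce. Pramel7, the gene left out by the filter, had 221 reads at day 0 and 2 to 3 in the day 6 libraries.

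Relative to Nons, Gbx2 was the STAT3 target that rose past 2-fold with both hairpins, by 1.20 (0.66 to 1.76) in Smarca4-4 and 1.14 (0.57 to 1.73) in Smarca4-6, from 41 reads in Nons to 97 and 72. At these low counts the call depended on the scale, since with 1 CPM added before taking logs the differences were 0.69 and 0.65. Over all tested genes, 0.513% passed 2-fold in the same direction with both hairpins, and 1.03% were higher in Smarca4-6. Myc rose by 1.08 (0.98 to 1.17) in Smarca4-6 and differed by 0.79 (0.69 to 0.88) in Smarca4-4. Klf4 and Tfcp2l1, in contrast, did not pass 2-fold, with Klf4 at 0.25 (-0.02 to 0.52) and -0.08 (-0.38 to 0.22) and Tfcp2l1 at -0.19 (-0.30 to -0.07) and -0.51 (-0.64 to -0.38). Bcl3 was the lowest of the 10 genes with either hairpin, at -0.77 (-1.06 to -0.49) and -0.85 (-1.17 to -0.54), also short of 2-fold. Of the 10, 6 were above Nons in Smarca4-4 and 5 in Smarca4-6. The medians of the 10 genes were 0.14 and 0.04.

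The promoter search found TTCNNNGAA in windows of 4 other listed genes, Cish, Gab1, Sgk1 and Zfp36. Of these and Socs3, Socs3 and Sgk1 fell and Cish and Zfp36 rose between Day0 and Nons, so genes with the letters in these windows were found on both sides. Gab1 did not pass 2-fold. Windows were not given for every listed gene, and Sgk1 held the letters in only some of its windows. Among all genes with windows, 2582 of 27025 held the letters.

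The genes most like each of 3 members in pattern were found by the Euclidean distance between log2 CPM values centred on each gene's mean over the 4 libraries. Nearest to Socs3 were Gm9524 (distance 0.164), Bmi1 (0.164) and Sfxn2 (0.166), and Bmi1, a Polycomb protein gene, was at 5.39 log2 CPM at day 0, 3.31 in Nons, 4.16 in Smarca4-4 and 3.70 in Smarca4-6. Nearest to Lifr were Dtwd2 (0.0752), 1700062I23Rik (0.0819) and Myom3 (0.0838). Nearest to Stat3 were Prickle2 (0.0458), Gm14549 (0.0561) and Rnf113a1 (0.0932). With 4 values per gene, such distances describe these libraries only.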

How the data were processed

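RNA was sequenced as 75 bp paired-end reads. The authors used trim_galore for trimming, HISAT2 or tophat for alignment to mm10 with strain-variant positions masked, and SeqMonk to quantify genes. The deposited values are log2 CPM, 1 column per library, both alleles combined. Whether strand was used in counting is not given in the sources used here. Groups were taken from sample titles, because a genotype label names another gene's knockdown for all day 6 libraries, Nons included, and a nonsilencing control for day 0.

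From the deposited log2 values, whole reads were recovered (within 0.05 of a read for every value up to 1000 reads; 0 reads had been written as 0.9 of a read). They gave exact Poisson intervals of levels and Clopper-Pearson intervals of ratios. Genes with a mean log2 CPM of at least 0 were kept, and differences of at least 2-fold were counted. RPKM used union exon lengths from GENCODE M21 (GRCm38, the assembly of mm10). Gene coordinates came from the deposited table (mm10). The members and lists were chosen with earlier results of these data known. A gene of the JAK-STAT list is not reported here and was left out of the counts. Named genes are the 8 members, Smarca4, Lif, the largest changes past 2-fold in each list (at most 4 each way between day 0 and Nons, 2 each way for a hairpin) and the 3 nearest patterns of Socs3, Lifr and Stat3. Other genes (Pou5f1, Vim, Tubb3, Pax6, Sox1, Sox17, Bcl3, Socs1, Stat5a, Pramel7, Il6, Ptprc, Tyrobp, Cd52 and Ddx3y, and those named for the promoter search) were named after their values were seen. Alternatives were a stricter filter, no filter, log2(CPM + 1), centring on the autosomal median, TMM factors, a 1.5-fold threshold and longest-transcript lengths. Computations were tested on simulated reads. Python 3.11.15, numpy 2.4.6, pandas 2.3.3, scipy 1.17.1 and matplotlib 3.10.9 were used.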

Additional observations from a re-analysis of the deposited data

Results flagged for a closer look

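Of the 8 genes, 2 lay on opposite sides of Nons with the 2 hairpins, with each counting interval on the deposited scale excluding 0. Jak2 differed from Nons by 0.16 in Smarca4-4 and by -0.14 in Smarca4-6. With TMM factors the Smarca4-4 difference was 0.11, and its interval, which starts at 0.04 on the deposited scale, moved by -0.04 to include 0. Stat3 differed by -0.15 in Smarca4-4 and by 0.22 in Smarca4-6. Each group held 1 library, so the difference between hairpins was not tested against any spread between replicates.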

How the results depend on the processing

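Under the stricter filter, no filter, log2(CPM + 1), centring on the autosomal median and TMM factors, the counts of the 8 genes past 2-fold were the same as in the report in every comparison. A 1.5-fold threshold moved 5 counts. It added Pim1 as 1 gene higher in Nons than at day 0, and Socs3 as 1 gene higher in Smarca4-4, 1 in Smarca4-6 and 1 with both hairpins, where 469 of 13264 tested genes (3.54%) passed in the same direction. Socs2 also passed as lower than at day 0, giving 5 lower genes in place of 4. Shares of all tested genes past the threshold moved by over 1.5 times in 14 of 24 cases, and without a filter 8.72% passed in Smarca4-4 and 8.82% in Smarca4-6. Levels per kilobase moved beyond their counting intervals for 25 of 32 values with longest-transcript lengths. No paired analysis was possible because every group consisted of a single library, all with the replicate number 3. Depth limits Lifr most at day 6 (254 to 298 reads) and Jak2 at day 0 (309 reads), and no spread between cultures is known for any gene.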
